A study of Mus musculus with 18 samples.

Results

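Genes that set the identity of the gonad and of the ovary's supporting cells were followed in mice with and without Elavl2, whose product is one of the ELAV proteins that bind RNA. The members, 10 of 19298 genes measured, are Gata4, Gata6, Lhx9, Emx2, Wt1, Cbx2, Nr5a1, Nr0b1, Esr2 and Foxl2. They were chosen by name, with earlier results of these data known. Every non-control probe that the scanner files name for 1 of them was taken, 18 probes in all, and all 18 passed the filter on dim probes described with the processing. A gene is represented by its brightest probe, and the remaining probes are reported beside it.

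The samples were whole XX gonads, labelled as ovary and female, from wild type and Elavl2 knockout mice at 2 embryonic stages, E15.5 and E17.5 (days of gestation), and on the day of birth, P0. Wild type and knockout at each stage make 6 groups with 3 samples each, and each sample was hybridised to its own 1-colour array. The labels give no strain, do not state which part of Elavl2 was deleted or in which cells, and describe the samples as mixed. Nothing in them ties each sample to its own animal, so p-values measure only the spread between these samples, which may be technical. Values are log2 signals relative to the 75th percentile of the same array, so 0 is the 75th percentile and 1 unit is a doubling. A probe's level cannot be set against the level of another probe.

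The gonad forms from a ridge of epithelium that can become testis or ovary, and WT1, LHX9, EMX2, GATA4, CBX2 and NR5A1 are known as factors that this ridge needs to form or to commit. In the XX gonad the supporting lineage becomes pregranulosa cells, which enclose oocytes in primordial follicles around birth and carry FOXL2, a forkhead factor that maintains granulosa cell fate. These factors act mostly in somatic cells, while ELAVL2 is known from neurons and from germ cells of the ovary.

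At birth, 8 of the 10 members differed between knockout and wild type ovaries, at a stage at which 34.4% of all genes did. Gata4, Gata6, Lhx9, Wt1, Emx2 and Nr0b1 were higher in the knockout by 1.37-fold to 1.92-fold, and Esr2 and Cbx2 were lower by 1.91-fold and 1.45-fold. No member passed the test at E15.5 or at E17.5, where 1.62% and 4.19% of all genes did. Foxl2 and Nr5a1 passed it at none of the 3 stages.

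Elavl2 itself lay between 1.97 and 2.28 on the wild type arrays and between 1.88 and 2.11 on the knockout arrays at E15.5. It was lower in the knockout by 0.87 log2 units at E17.5 (standard error, SE, 0.12, limma, adjusted p = 0.00448) and by 1.36 at P0 (SE 0.12, limma, adjusted p = 9.09e-06). Because the deleted part is not given, this probe does not check the labels. Between 62.5% and 75.1% of probes were well above background on an array, and Pearson's r between replicate arrays, across genes, was 0.965 to 0.995. The arrays were scanned on 2 days, A and B. All E15.5 arrays and replicate 3 of both E17.5 groups were scanned on day A and the others on day B. At E15.5 and at P0 no slide held both genotypes, so slide and genotype cannot be told apart there. At E17.5 only the replicate 3 arrays of both genotypes shared a slide. The day B arrays of that stage had wild type and knockout on separate slides, so the same holds for their differences.

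**Figure D1:**
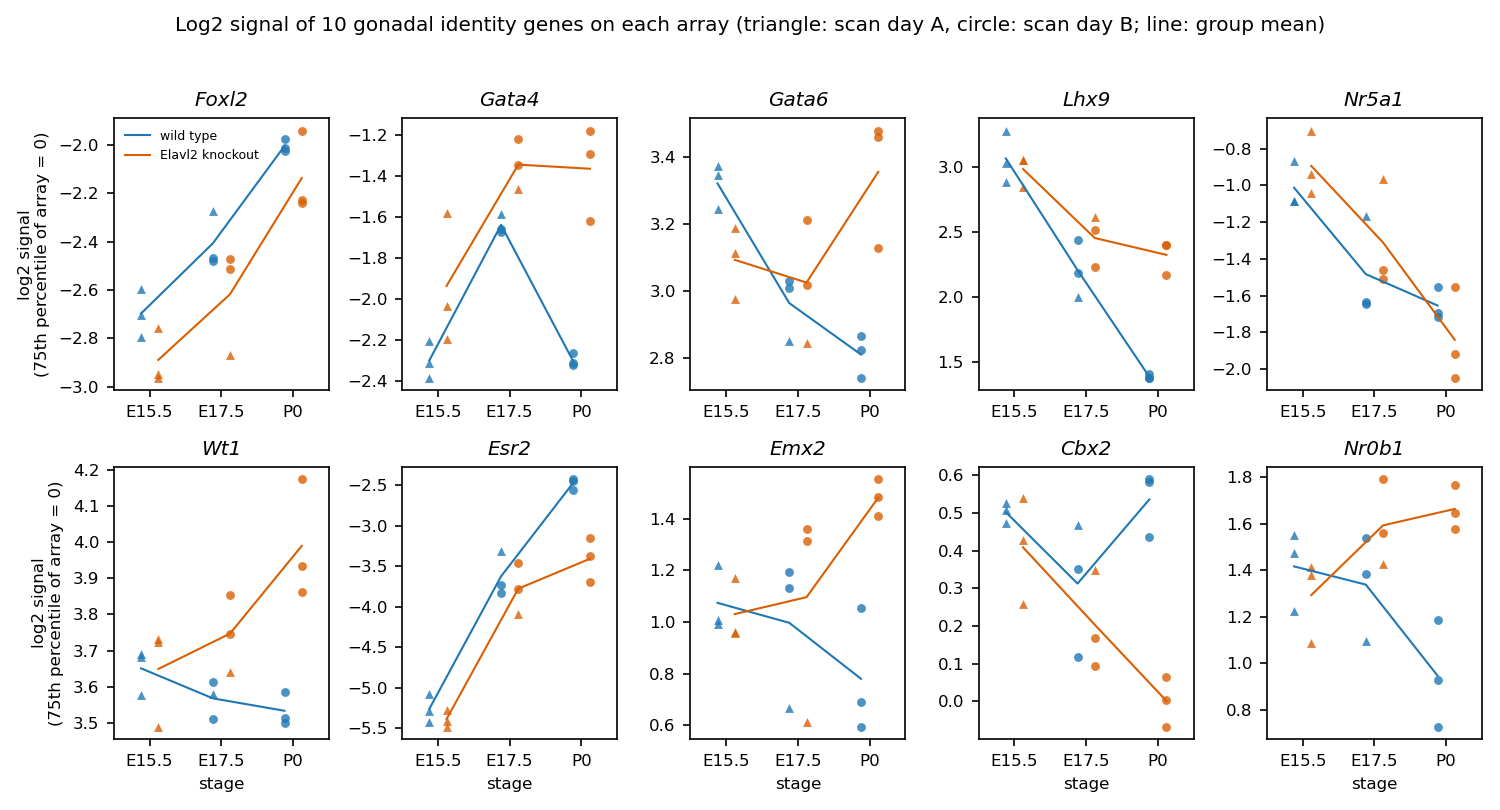
Log2 signal of the 10 members on each of 18 arrays (vertical axis, 0 at the array's 75th percentile) by stage (horizontal axis), in wild type (blue) and Elavl2 knockout (orange), with lines through the means of 3 arrays, triangles for scan day A and circles for scan day B. At P0 Lhx9 lies between 1.38 and 1.41 in wild type against 2.17 to 2.40 in knockout.

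Genotypes were compared at each stage with a linear model over all 18 arrays (limma, groups plus scan day) and Benjamini-Hochberg adjustment over all genes tested. At P0 the test was passed by 34.4% of all genes, 18.3% higher and 16.1% lower in the knockout, so the members' 8 of 10 is read against a stage at which a large share of all genes differed. The median difference of the members at P0 was 0.50 on the log2 scale, against -0.00087 over all genes. Because the members were chosen with earlier results of these data known, these comparisons with all genes are descriptions only. At E15.5 the test was passed by 1.62% of all genes and by 0 of 10 members, with 2 members at an unadjusted p under 0.05. At E17.5 it was passed by 4.19% of all genes and by 0 of 10 members, with 0 at an unadjusted p under 0.05. The shares of all genes before birth depended on the fit, and with only the arrays of the stage itself 0 genes were called at E15.5 and 1 at E17.5. With the replicate block 167 genes were called at E17.5. Scaling by the array median instead of the 75th percentile moved the median of all genes at P0 to 0.14 and the share of called genes that were higher from 53.1% to 73.4%. All 8 members were called in the same direction under that scaling, Esr2 at -0.79 and Cbx2 at -0.39.

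**Figure D2:**
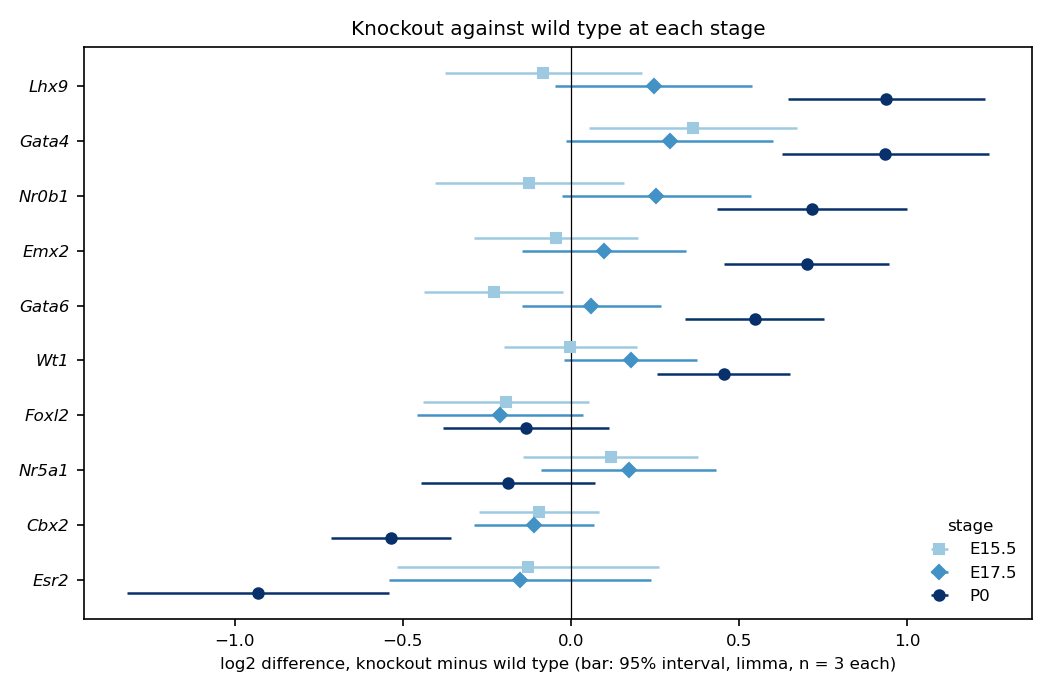
Log2 difference of knockout minus wild type (horizontal axis) for each member at E15.5 (squares), E17.5 (diamonds) and P0 (circles), with 95% intervals from limma and 3 arrays per group. The P0 intervals of 6 genes lie above 0, those of Cbx2 and Esr2 lie below 0, and those of Foxl2 and Nr5a1 span 0.

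Sequence just upstream of the gene start was read for members that moved at P0 and had an entry in a RefSeq-derived table of build GRCm38.p6. Entries existed for 5 of the 10 members, and 4 windows of 250 bases are shown because 3 belong to genes that were higher together and 1 to a gene that was lower. They are Lhx9 (chr1:138842445-138842694, minus strand), Emx2 (chr19:59458440-59458689, plus strand), Nr0b1 (chrX:86191525-86191774, plus strand) and Esr2 (chr12:76177260-76177509, minus strand). Each runs 5′ to 3′ on the gene's strand and ends at the base before its start, with matches to short motifs in capitals.
Lhx9: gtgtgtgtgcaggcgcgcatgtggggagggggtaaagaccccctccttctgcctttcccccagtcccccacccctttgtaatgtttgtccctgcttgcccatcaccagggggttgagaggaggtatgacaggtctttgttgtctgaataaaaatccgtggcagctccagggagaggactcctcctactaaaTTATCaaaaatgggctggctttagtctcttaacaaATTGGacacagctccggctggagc
Emx2: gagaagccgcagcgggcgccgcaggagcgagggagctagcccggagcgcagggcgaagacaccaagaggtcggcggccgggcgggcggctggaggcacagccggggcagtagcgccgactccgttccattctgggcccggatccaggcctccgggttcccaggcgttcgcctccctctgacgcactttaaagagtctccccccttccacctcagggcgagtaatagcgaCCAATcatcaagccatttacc
Nr0b1: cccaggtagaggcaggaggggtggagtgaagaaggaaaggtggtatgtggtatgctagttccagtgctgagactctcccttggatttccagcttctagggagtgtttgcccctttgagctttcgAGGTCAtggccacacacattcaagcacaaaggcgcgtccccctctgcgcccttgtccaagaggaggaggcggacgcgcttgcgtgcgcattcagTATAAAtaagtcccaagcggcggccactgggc
Esr2: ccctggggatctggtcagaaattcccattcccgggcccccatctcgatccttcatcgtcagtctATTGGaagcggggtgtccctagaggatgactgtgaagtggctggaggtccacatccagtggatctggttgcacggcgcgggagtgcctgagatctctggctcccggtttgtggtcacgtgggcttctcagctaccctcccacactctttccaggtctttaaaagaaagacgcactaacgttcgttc
Both strands were searched. The capitals mark the box known as CCAAT. They also mark the core of a GATA factor site, spelled GATAA, and the half-site bound by nuclear receptors, spelled AGGTCA. The last motif marked is a TATA box, spelled TATAAA. Lhx9 held CCAAT 24 bases and GATAA 59 bases before its start, both on the strand opposite to the gene's. Distances are counted at the first base of the match as printed. Emx2 held CCAAT 21 bases before the start, and Esr2 held it on the strand opposite to the gene's 186 bases before the start. Nr0b1 held TATAAA 32 bases and AGGTCA 126 bases before the start. These letters are common: CCAAT was found in 33.8% of 32536 promoter windows of this length, GATAA in 22.5%, AGGTCA in 14.0% and TATAAA in 12.3%. The 4 motifs were chosen after the windows had been seen, and 4 others searched first were not in the 5 windows. These were an extended receptor half-site (spelled AAGGTCA and holding the shorter one), a longer GATA factor site (spelled AGATAA), a homeodomain core (spelled TAATTA) and a forkhead core (spelled TAAACA). No motif was shared by the 3 genes that were higher, and a match is a description of the letters only.

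GATA4 and GATA6 are zinc finger factors that act in gonadal somatic cells from the ridge onwards and share many targets. Gata4 on the wild type arrays lay at -2.39, -2.31 and -2.20 at E15.5, at -1.66, -1.67 and -1.59 at E17.5 and at -2.32, -2.26 and -2.32 at P0. On the brightest probe, the wild type level was thus highest at E17.5, with no overlap with the stage before or after. On the knockout arrays it lay at -2.19, -2.03 and -1.58 at E15.5, at -1.35, -1.22 and -1.47 at E17.5 and at -1.29, -1.18 and -1.62 at P0, so the knockout arrays at P0 overlapped those at E17.5. At P0 every knockout array was above every wild type array, by 0.94 on the log2 scale (SE 0.14, 95% interval 0.63 to 1.24, limma, adjusted p = 0.000379), a 1.91-fold difference. The groups did not overlap at E15.5 or E17.5 either, but the differences of 0.36 (SE 0.14, limma, adjusted p = 0.249) and 0.29 (SE 0.14, limma, adjusted p = 0.248) did not pass the test. The E17.5 difference was 0.12 on scan day A, with 1 array of each genotype, and 0.38 on day B, with 2 of each.

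The 2 Gata4 probes did not follow each other over the 18 arrays (Pearson's r = 0.031). The probe reported above (chr14:63818147-63818206 on build mm9, 10 spots on each array) gave 0.94 at P0, and the other (chr14:63817752-63817773) gave 0.25 (SE 0.08). At E15.5 and E17.5 the other probe gave 0.007 (SE 0.08) and 0.10 (SE 0.08). Both were well above background on all 18 arrays, with similar mean levels of -1.81 and -1.92. With the mean of both probes the P0 difference was 0.59 (limma, adjusted p = 0.000357). No annotation of build mm9 was used here, so the exon or untranslated region a probe lies in is not stated for any member.

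The brightest Gata6 probe was lower in wild type at E17.5 than at E15.5, a difference that not all its probes shared, as given with the stage comparison. Its wild type arrays read 3.37, 3.35 and 3.25 at E15.5, 3.03, 3.01 and 2.85 at E17.5, and 2.82, 2.74 and 2.87 at P0. The knockout arrays read 2.98, 3.19 and 3.11 at E15.5, 3.02, 3.21 and 2.84 at E17.5, and 3.46, 3.48 and 3.13 at P0. The P0 knockout arrays were therefore above the P0 wild type arrays without overlap, and they overlapped the wild type arrays of E15.5. The difference at P0 was 0.55 (SE 0.10, 95% interval 0.34 to 0.75, limma, adjusted p = 0.000952). It was -0.23 at E15.5 (limma, adjusted p = 0.284) and 0.06 at E17.5 (limma, adjusted p = 0.742, with -0.0075 on scan day A and 0.10 on day B), and neither passed the test. Of 3 Gata6 probes, the other 2 gave 0.46 (SE 0.08) and -0.27 (SE 0.17) at P0, and the last of these had r = -0.033 with the brightest. The call ended when the 3 probes were averaged (0.25, limma, adjusted p = 0.0742).

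LHX9 and EMX2 are homeodomain proteins needed for growth of the gonadal ridge. Lhx9 had the smallest adjusted p of the 10 members at P0. Wild type arrays lay at 3.28, 3.04 and 2.89 at E15.5, at 2.44, 2.19 and 2.00 at E17.5 and at 1.41, 1.38 and 1.38 at P0, stepping down at each stage without overlap. Knockout arrays lay at 2.85, 3.06 and 3.06 at E15.5, at 2.23, 2.51 and 2.62 at E17.5 and at 2.40, 2.17 and 2.40 at P0. At P0 the knockout thus overlapped the E17.5 arrays of both genotypes. The P0 difference was 0.94 (SE 0.14, 95% interval 0.65 to 1.23, limma, adjusted p = 0.000256), a 1.92-fold higher level in the knockout. At E17.5 it was 0.25 (SE 0.14, limma, adjusted p = 0.307), with 0.62 on scan day A and 0.06 on day B, and at E15.5 it was -0.08 (limma, adjusted p = 0.846).

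The brightest Lhx9 probe lies at chr1:140724786-140724845 (mm9). A second probe (chr1:140726263-140726322) gave 0.16 (SE 0.11) at P0 and the remaining probe (chr1:140735266-140736499) gave 0.69 (SE 0.12). Both tracked the brightest over the arrays (r = 0.866 and 0.950), and the mean of the 3 gave 0.59 (limma, adjusted p = 0.000755).

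Emx2 was measured at chr19:59539142-59539201 (mm9). In wild type it read 1.22, 1.01 and 0.99 at E15.5, 1.13, 1.19 and 0.67 at E17.5, and 0.59, 0.69 and 1.06 at P0. In the knockout it read 0.96, 0.96 and 1.17 at E15.5, 1.31, 1.36 and 0.61 at E17.5, and 1.41, 1.55 and 1.48 at P0. The 3 P0 knockout arrays were above all other arrays, and both low E17.5 values were of replicate 3, scanned on day A. The P0 difference was 0.70 (SE 0.11, 95% interval 0.46 to 0.95, limma, adjusted p = 0.000566), and the second probe gave 0.61 (SE 0.10). At E17.5 the difference was 0.10 (limma, adjusted p = 0.644), with -0.05 on day A and 0.18 on day B, and at E15.5 it was -0.04 (limma, adjusted p = 0.907).

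WT1 is a zinc finger protein of the gonadal ridge and of supporting cells, and CBX2 is a polycomb protein whose loss in XY mice is known to turn the gonad towards ovary. Wt1 (chr2:105013428-105013487 on mm9, 10 spots) was nearly level in wild type, at 3.69, 3.68 and 3.58 at E15.5, at 3.61, 3.51 and 3.58 at E17.5 and at 3.50, 3.51 and 3.59 at P0. Knockout arrays read 3.49, 3.72 and 3.73 at E15.5, 3.75, 3.85 and 3.64 at E17.5, and 4.17, 3.93 and 3.86 at P0. The P0 knockout arrays were above all other arrays of the series. The difference at P0 was 0.46 (SE 0.09, 95% interval 0.26 to 0.65, limma, adjusted p = 0.0023). At E17.5 the genotypes did not overlap, yet the difference of 0.18 (limma, adjusted p = 0.273) did not pass the test. It was 0.06 on scan day A and 0.24 on day B. At E15.5 the genotypes overlapped (limma, adjusted p = 0.995).

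Cbx2 moved the other way. Wild type arrays (probe at chr11:118892363-118892422, mm9) read 0.47, 0.51 and 0.53 at E15.5, 0.12, 0.35 and 0.47 at E17.5, and 0.58, 0.59 and 0.44 at P0. The knockout arrays read 0.26, 0.54 and 0.43 at E15.5, and 0.17, 0.09 and 0.35 at E17.5. At P0 they read -0.07, 0.00 and 0.07, below every other array of the series. The P0 difference was -0.53 (SE 0.08, 95% interval -0.71 to -0.36, limma, adjusted p = 0.000418), a 1.45-fold lower level. A dimmer second probe, well above background on 12 of 18 arrays, gave -0.65 (SE 0.26). Earlier differences were -0.09 at E15.5 (limma, adjusted p = 0.673) and -0.11 at E17.5 (limma, adjusted p = 0.463), the latter with -0.12 on day A and -0.10 on day B.

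Nr5a1, Nr0b1 and Esr2 encode nuclear receptors. NR5A1 drives genes of steroid synthesis, NR0B1 lacks a usual DNA-binding domain and represses NR5A1, and ESR2 is the estrogen receptor of granulosa cells. Nr5a1 (chr2:38549021-38549080, mm9) read -1.08, -1.09 and -0.87 in wild type and -1.04, -0.94 and -0.70 in knockout at E15.5. At E17.5 the wild type arrays read -1.63, -1.65 and -1.17 and the knockout arrays -1.51, -1.46 and -0.96, and replicate 3, scanned on day A, was the highest in both groups. At P0 they read -1.69, -1.55 and -1.71 in wild type and -2.05, -1.55 and -1.92 in knockout. The genotypes overlapped at every stage. The P0 difference of -0.19 had a 95% interval of -0.45 to 0.07 (limma, adjusted p = 0.244). It passed the test only when replicate 2 of the P0 knockout was left out (-0.33, limma, adjusted p = 0.0309). Its differences at E15.5 and E17.5 were 0.12 (limma, adjusted p = 0.721) and 0.17 (limma, adjusted p = 0.426, with 0.20 on day A and 0.16 on day B). A second, dim probe gave -0.0068 (SE 0.17) at P0.

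Nr0b1 (chrX:83441169-83441228, mm9) read 1.55, 1.47 and 1.23 in wild type at E15.5, 1.38, 1.54 and 1.09 at E17.5, and 0.93, 0.73 and 1.19 at P0. In the knockout it read 1.09, 1.41 and 1.38 at E15.5, 1.56, 1.79 and 1.43 at E17.5, and 1.77, 1.65 and 1.58 at P0. Levels overlapped between genotypes before birth and separated at P0. The P0 arrays of each genotype overlapped its arrays at E17.5, and the wild type mean was lower at P0 than at E17.5. The P0 difference was 0.72 (SE 0.13, 95% interval 0.44 to 1.00, limma, adjusted p = 0.00123). At E17.5 it was 0.25 (limma, adjusted p = 0.273), with 0.34 on day A and 0.21 on day B, and at E15.5 it was -0.12 (limma, adjusted p = 0.732).

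Esr2 (chr12:77222311-77222370, mm9, 10 spots) rose in wild type at each stage. Its arrays read -5.42, -5.07 and -5.28 at E15.5, -3.83, -3.73 and -3.31 at E17.5, and -2.43, -2.44 and -2.56 at P0. Knockout arrays read -5.27, -5.48 and -5.41 at E15.5, where 2 of 3 were well above background, then -3.46, -3.78 and -4.08 at E17.5 and -3.69, -3.38 and -3.15 at P0. At P0 the knockout was below the wild type without overlap and overlapped the E17.5 arrays of both genotypes. The P0 difference was -0.93 (SE 0.18, 95% interval -1.32 to -0.54, limma, adjusted p = 0.00186). With normexp background correction it was -0.48 (limma, adjusted p = 0.000816). At E17.5 it was -0.15 (limma, adjusted p = 0.657), with -0.78 on day A and 0.16 on day B, and at E15.5 it was -0.13 (limma, adjusted p = 0.814).

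Foxl2 (chr9:98856287-98856346, mm9), the pregranulosa factor of the set, read -2.79, -2.70 and -2.59 in wild type at E15.5, -2.48, -2.47 and -2.27 at E17.5, and -2.02, -2.01 and -1.97 at P0. In the knockout it read -2.96, -2.76 and -2.95 at E15.5, -2.47, -2.51 and -2.87 at E17.5, and -2.23, -1.94 and -2.24 at P0. The genotypes overlapped at all 3 stages. The P0 difference was -0.13 with a 95% interval of -0.38 to 0.11 (limma, adjusted p = 0.385). The differences at E15.5 and E17.5 were -0.19 (limma, adjusted p = 0.484) and -0.21 (limma, adjusted p = 0.304), the latter with -0.59 on day A and -0.02 on day B.

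**Figure D3:**
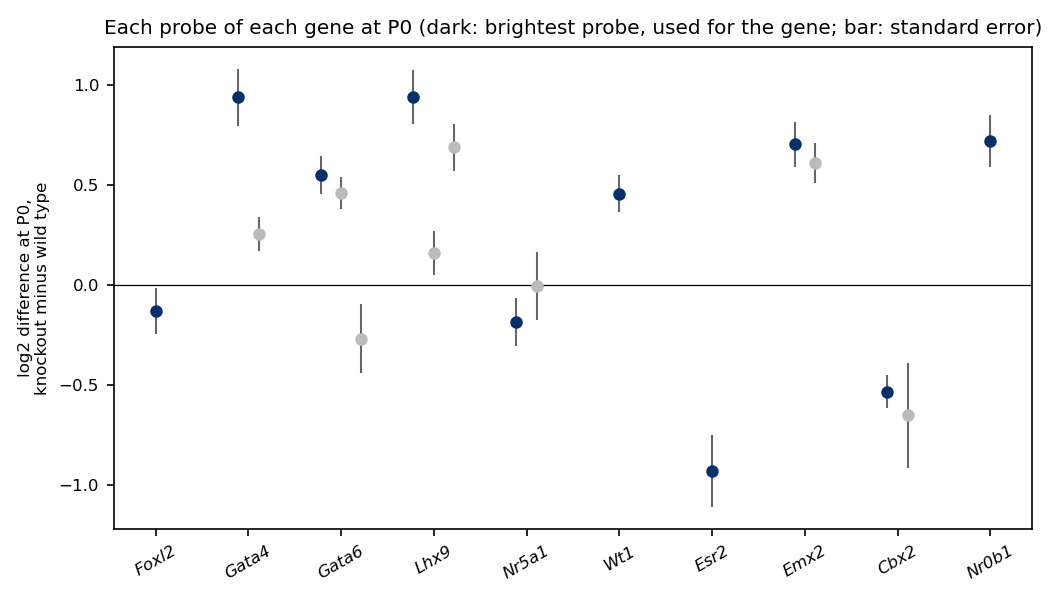
Log2 difference of knockout minus wild type at P0 (vertical axis) for each of the 18 probes, grouped by gene (horizontal axis), with bars of 1 standard error. The brightest probe of each gene is dark, the others are grey, and the dimmest Gata6 probe at -0.27 lies on the other side of 0 from its brightest probe at 0.55.

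Whether the genotype difference itself changed between neighbouring stages was tested by an interaction contrast. Between E17.5 and P0, 10.4% of all genes passed, 4.28% upward and 6.12% downward, as did 4 of 10 members, 3 upward and 1 downward. For Lhx9 the difference grew by 0.69 (SE 0.19, limma, adjusted p = 0.0383), for Emx2 by 0.60 (SE 0.16, limma, adjusted p = 0.0324) and for Gata6 by 0.49 (SE 0.14, limma, adjusted p = 0.039), while for Cbx2 it changed by -0.43 (SE 0.12, limma, adjusted p = 0.037). The second Lhx9 probe gave 0.0091 (SE 0.15) and the remaining Lhx9 probe 0.68 (SE 0.16). With its probes averaged, Lhx9 was at 0.46 and was not called (limma, adjusted p = 0.0559). Gata4 at 0.64 (limma, adjusted p = 0.0611), Esr2 at -0.78 (limma, adjusted p = 0.0705), Nr0b1 at 0.46 (limma, adjusted p = 0.124) and Wt1 at 0.28 (limma, adjusted p = 0.187) did not pass, so their P0 difference was not shown to exceed that at E17.5 in this fit. Under quantile normalization with normexp, both Gata4 (0.46, limma, adjusted p = 0.0497) and Esr2 (-0.40, limma, adjusted p = 0.0497) were called, and under array median scaling Gata4 was called at 0.80 (limma, adjusted p = 0.0135). Over 25 alternatives Gata4 lay between 0.40 and 0.80 and was called in 6, and its other probe gave 0.15 (SE 0.12). With the replicate block, none of the 4 was called (limma, adjusted p = 0.0736 for Emx2, 0.0919 for Cbx2, 0.10 for Gata6 and 0.12 for Lhx9). Of the 10 members, 1 was called without the scan day in the model (Lhx9) and 1 when slides were fitted as a random block (Emx2). Between E15.5 and E17.5, 0.306% of all genes and 0 of 10 members passed, with 0 members at an unadjusted p under 0.05.

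In wild type alone, stages were compared with the scan day in the model, so these differences are not the plain differences of the arrays above. From E15.5 to E17.5, 26.4% of all genes passed, 15.3% higher and 11.1% lower, as did 5 of 10 members, 2 higher and 3 lower. Esr2 rose by 1.64 (SE 0.22, limma, adjusted p = 0.000275) and Gata4 by 0.63 (SE 0.17, limma, adjusted p = 0.0199). Over the alternatives the Esr2 rise lay between 0.49 and 1.73 and was always called, so its size depended on the processing. Leaving out single arrays gave 1.01 at the least. Lhx9 fell by 0.88 (SE 0.17, limma, adjusted p = 0.00244), Gata6 by 0.51 (SE 0.12, limma, adjusted p = 0.00806) and Emx2 by 0.48 (SE 0.14, limma, adjusted p = 0.0226). Emx2 overlapped between these stages on the arrays and was at -0.08 without the scan day in the model (limma, adjusted p = 0.804). Gata6 was at -0.13 when its 3 probes were averaged (limma, adjusted p = 0.472), with 1 of the other probes at -0.38 (SE 0.10) and the other at 0.50 (SE 0.21). Gata4 was at 0.58 with the replicate block (limma, adjusted p = 0.0617), and its other probe gave 0.08 (SE 0.10). All E15.5 arrays were of day A, so the comparison leans on the day A array of the E17.5 wild type, and without it only Esr2 was called. Calls over all genes fell from 5089 to 1049 without that array.

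From E17.5 to P0 in wild type, 43.3% of all genes passed, 22.1% higher and 21.2% lower, as did 7 of 10 members, 3 higher and 4 lower. Esr2 rose by a further 1.15 (SE 0.19, limma, adjusted p = 0.000487), Foxl2 by 0.37 (SE 0.12, limma, adjusted p = 0.0249) and Cbx2 by 0.30 (SE 0.09, limma, adjusted p = 0.0155). Over the alternatives this Esr2 rise lay between 0.60 and 1.30 and was always called. Lhx9 fell by 0.83 (SE 0.14, limma, adjusted p = 0.000617), Gata4 by 0.68 (SE 0.15, limma, adjusted p = 0.00323), Nr0b1 by 0.49 (SE 0.14, limma, adjusted p = 0.0119) and Emx2 by 0.42 (SE 0.12, limma, adjusted p = 0.0133). The other Gata4 probe gave -0.20 (SE 0.09). Nr5a1, Wt1 and Gata6 did not pass. Scaling by the array median put the median of all genes at -0.15 instead of 0.01 here and the higher share of calls at 31.4% instead of 51.1%. For E15.5 to E17.5 it put them at -0.18 instead of 0.03 and at 28.0% instead of 58.0%. From E17.5 to P0 the calls of Foxl2 and Cbx2 ended under it, and Gata6 was called at -0.39 (limma, adjusted p = 0.0132). Quantile normalization, with or without normexp background correction, also called Gata6 (limma, adjusted p = 0.0318 with and 0.0367 without) and ended the call of Foxl2, at 0.16 with normexp (limma, adjusted p = 0.191) and 0.33 without (limma, adjusted p = 0.0826). Leaving out replicate 1 or 2 of the E17.5 wild type or replicate 2 or 3 of the P0 wild type ended the Foxl2 call too. Normexp with quantile normalization also ended the call of Nr0b1, at -0.32 (limma, adjusted p = 0.0936). Without the scan day in the model 4 members were called. The calls that ended were of Emx2 at -0.22 (limma, adjusted p = 0.403), Cbx2 at 0.22 (limma, adjusted p = 0.0971) and Nr0b1 at -0.39 (limma, adjusted p = 0.0531). On the arrays, Emx2, Cbx2 and Nr0b1 each overlapped between E17.5 and P0. Because wild type at P0 is on 1 side of both comparisons, these values and the P0 genotype differences share samples and are given side by side only. In the main fit Esr2, Cbx2, Lhx9, Gata4, Nr0b1 and Emx2 passed in both.

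Over the 18 arrays, Lhx9 and Esr2 ran opposite to each other (Pearson's r = -0.946), and Foxl2 ran with Esr2 (r = 0.879) and against Lhx9 (r = -0.858). Emx2 and Nr0b1 ran together (r = 0.796), as did Wt1 and Nr0b1 (r = 0.766). The points share stage, genotype, slide and scan day, and the values are descriptions. Genes known only by a probe, accession, clone or position name (such as Rik, LOC or Gm names) were left out of the following ranking. Among the others, those most like each member by this measure were Gkap1 and Reep2 for Foxl2 (both 0.948), Tex19.2 for Gata4 (0.952), Irx5 for Gata6 (0.907) and Nxph3 for Lhx9 (0.963). Ppfia3 was most like Nr5a1 (0.968), Litaf most like Wt1 (0.944), Fbxw18 most like Esr2 (0.986), Gjc1 most like Emx2 (0.921), Ttc7b most like Cbx2 (0.911) and Ednra most like Nr0b1 (0.935). Fdx1, an electron carrier of steroid synthesis, was the next most like Wt1 (0.921).

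**Figure D4:**
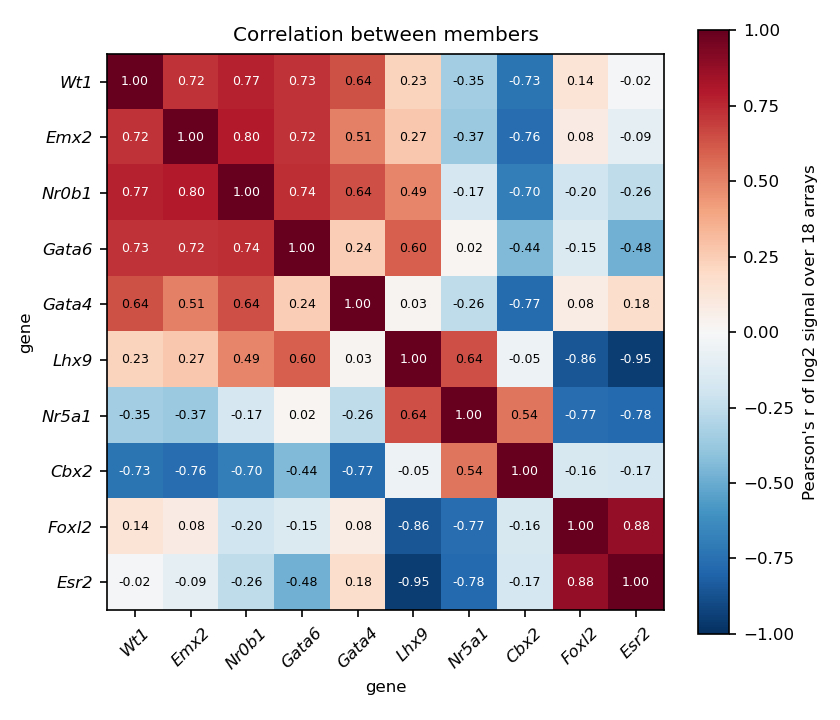
Pearson's r of log2 signal over 18 arrays between each pair of members (rows and columns), coloured from -1 (blue) to 1 (red). Wt1, Emx2, Nr0b1 and Gata6 form a block of positive values, and Lhx9 against Esr2 is the most negative at -0.946.

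Other genes of the same pathways were followed as 5 lists. Of 19 granulosa and pregranulosa genes other than the members, 5 were higher and 4 lower in the knockout at P0, with a median difference of 0.12. Hsd17b1, which makes estradiol from estrone, was lower at -1.17 (SE 0.24, limma, adjusted p = 0.00243), and Inhbb, an activin and inhibin subunit, was lower at -0.69 (SE 0.14, limma, adjusted p = 0.00247). Irx3, a homeobox gene of pregranulosa cells, was higher at 1.32 (SE 0.28, limma, adjusted p = 0.00297), and Rspo1, an activator of WNT signalling in the ovary, was higher at 0.43 (SE 0.09, limma, adjusted p = 0.00392). Before birth no gene of this list passed, with 4 at an unadjusted p under 0.05 at E15.5 and 3 at E17.5.

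Among 22 measured transcription factors and cofactors of the early gonad, 8 were higher and 2 lower at P0, with a median of 0.22. Sox8 was lower at -1.30 (SE 0.18, limma, adjusted p = 0.00016) and Map3k4, a kinase upstream of Sry, was lower at -0.61 (SE 0.10, limma, adjusted p = 0.000745). At E15.5 1 gene of the list, the GATA4 cofactor Zfpm2, was called, lower at -0.46 (limma, adjusted p = 0.043), and at E17.5 1, Nr2f2, was called, higher at 0.39 (limma, adjusted p = 0.0489).

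Of 11 measured NR5A1 target genes of steroid synthesis, Fdx1 was higher at 0.56 (SE 0.07, limma, adjusted p = 0.000115) and Hsd17b3, which makes testosterone, was lower at -1.80 (SE 0.35, limma, adjusted p = 0.00193) at P0, and the other 9 did not pass. Of 20 polycomb genes other than Cbx2, 4 were higher and 2 lower, with a median of 0.12. Cbx7, which takes the same place as CBX2 in the complex, was higher at 0.45 (SE 0.10, limma, adjusted p = 0.00406), and Ezh2, the histone methyltransferase, was lower at -0.38 (SE 0.10, limma, adjusted p = 0.00923). Among 14 measured paralogs of the members, 4 were higher and 3 lower, including Gata2 at 0.66 (SE 0.16, limma, adjusted p = 0.00618) and Nr5a2 at -0.69 (SE 0.19, limma, adjusted p = 0.0133). Over all genes 34.4% passed at P0, so none of the 5 lists is called particular by its count.

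Markers of the cells a whole gonad can hold were read beside these results. In whole tissue, fewer cells of a type and less RNA per cell cannot be told apart. The 10 germ cell markers were well above background on every array. Their signals, on a linear scale with 1 at the 75th percentile, summed to 98.1 to 119 in wild type and 69.0 to 104 in knockout at E17.5, and to 112 to 119 and 108 to 137 at P0. At E17.5, 1 of 10 was lower in the knockout, Rnf17 at -0.72 (limma, adjusted p = 0.0439), with 5 at an unadjusted p under 0.05 and a median of -0.32. At P0, 2 of 10 were higher in the knockout, Dazl at 0.86 (limma, adjusted p = 0.00035) and Dnd1 at 0.59 (limma, adjusted p = 0.0102), and none lower, with a median of 0.16.

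The 8 endothelial markers summed to 8.92 to 10.5 in wild type and 11.9 to 13.9 in knockout at P0, where 6 of 8 were higher and none lower, with a median of 0.39. Tie1 at 0.68 (limma, adjusted p = 0.000127) and Pecam1 at 0.60 (limma, adjusted p = 0.000379) had the smallest adjusted p. At E17.5, 2 of 8 were higher, Sox18 at 0.42 (limma, adjusted p = 0.00895) and Erg at 0.31 (limma, adjusted p = 0.0416), and none lower. Of 10 stromal markers 4 were higher and none lower at P0, and 9 of them, leaving out Nr2f2 for a missing spot, summed to 253 to 288 in wild type and 251 to 317 in knockout. Of 7 measured surface epithelium markers 3 were higher and none lower, with sums of 42.9 to 51.2 and 51.1 to 55.2. Over all genes 34.4% passed at P0, 18.3% higher, so the stromal and surface epithelium lists are not called particular by their counts. Their sums overlapped between the genotypes. The genes called in the endothelial, stromal and surface lists were higher in the knockout, as were the 6 higher members. Their part in the result was not tested.

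Emx2 and Wt1 are also known from the mesonephros and kidney, and Nr5a1 and Nr0b1 from the adrenal cortex. Of 7 mesonephric and kidney markers, Cdh1 at -0.83 (limma, adjusted p = 0.00293) and Lhx1 at -0.38 (limma, adjusted p = 0.041) were lower at P0 and none was higher, and the list summed to 1.34 to 1.46 in wild type and 0.98 to 1.18 in knockout. None of 5 measured adrenal markers passed at P0, with 0 at an unadjusted p under 0.05, and they summed to 6.24 to 11.1 in wild type and 3.34 to 8.12 in knockout. Of 8 macrophage markers 1, C1qa, was higher at P0 at 0.43 (limma, adjusted p = 0.0219), with sums of 5.57 to 14.3 and 8.96 to 10.8. The 7 measured red cell markers summed to 44.4 to 137 in wild type and 63.8 to 72.5 in knockout at P0 without a call (1 at an unadjusted p under 0.05), and to 135 to 199 and 202 to 407 at E17.5. The embryonic globins Hbb-bh1 and Hba-x were well above background on no P0 array. The part of these cell types in the members' differences was not tested.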

How the data were processed

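RNA of 18 whole XX gonad samples was hybridised to 1-colour Agilent 4x44K mouse arrays. The deposited scanner files hold spot intensity that the authors extracted and background-subtracted with Agilent Feature Extraction, whose version the file headers give as 10.7.3.1 and the submitters' processing notes as 9.5. The deposited series matrix holds log2 values equal to log2 intensity plus 1 constant per array, which puts the 75th percentile of each array at about 9.62. The files place probes on build mm9.

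Control probes and spots marked as outliers (51 to 109 on an array) were removed, and 0 spots were saturated. A probe was kept if some group had it well above background on its 3 arrays, which 29201 of 41174 probes met. The log2 intensity minus the array's 75th percentile was analysed with the brightest probe of each gene (19298 genes). Names came from a RefSeq table of GRCm38.p6 for 28223 probes, 1471 of them changed, and 12951 kept the file's name. limma 3.58.1 in R 4.3.3 fitted 6 groups and the scan day (11 residual degrees of freedom), with calls at p under 0.05 after Benjamini-Hochberg adjustment over all genes. The fit was tested on simulated data. Precision is limited by having 3 arrays per group.

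The members and the gene lists were chosen with earlier results of these data known. Named are all members, Elavl2, up to 4 genes of each of 13 lists with the smallest adjusted p in a comparison or the only ones called in a direction, and up to 3 genes most correlated with each member, of which the text prints a part picked after their values were seen. A few of them are not reported here. For same-numbered arrays of both genotypes, deviations from the group mean correlated at 0.12, 0.40 and 0.45 at E17.5. They correlated at 0.18, 0.20 and -0.12 at E15.5 and at 0.15, 0.10 and 0.08 at P0. Scan day was not removed from these deviations. Replicate 3 was the only day A array of both E17.5 groups and shared a slide, so the E17.5 correlations cannot show whether the numbers are pairs. The main fit used no pairs. The replicate block paired same-numbered arrays of both genotypes at all 3 stages for the genotype contrasts. For the wild type stage contrasts it used the replicate number across stages. Alternatives were normexp with quantile normalization, quantile normalization, array median scaling, the series matrix, no filter, a stricter filter, the mean of probes, no scan day term, moderation with a trend, a random block for the slide, a 1.5-fold minimum, only the stages compared, the replicate block and leaving out each array. Python 3.11.15 with matplotlib 3.10.9 drew the figures.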

Additional observations from a re-analysis of the deposited data

Results flagged for a closer look

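For 4 of 10 members, and for 10.4% of all genes, the genotype difference itself differed between E17.5 and P0 by the interaction contrast (limma, Benjamini-Hochberg adjustment). The change in the difference was 0.69 for Lhx9 (adjusted p = 0.0383), 0.60 for Emx2 (adjusted p = 0.0324), 0.49 for Gata6 (adjusted p = 0.039) and -0.43 for Cbx2 (adjusted p = 0.037). In each case the difference was small at E17.5 (0.25, 0.10, 0.06 and -0.11) and larger at P0 (0.94, 0.70, 0.55 and -0.53). With the replicate block the adjusted p was 0.12, 0.0736, 0.10 and 0.0919 for the same genes in that order, so none was called. The second Lhx9 probe changed by 0.0091 (SE 0.15) and the remaining Lhx9 probe by 0.68 (SE 0.16). E17.5 arrays came from 2 scan days and P0 arrays from 1. Over the arrays of scan day B alone, 2 members were called, Lhx9 and Esr2. Of 25 alternative settings, including leaving out each array, Lhx9 and Emx2 were each called in 11. Gata6 and Cbx2 were each called in 8.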

How the results depend on the processing

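No member's call turned direction under any alternative run. The counts of 0 members called at E15.5 and at E17.5, and of 0 for the interaction between these stages, held under every alternative. At P0 the 8 members called became 5 with a minimum of 1.5-fold, and leaving out each array gave 8 to 9, the ninth being Nr5a1. Averaging a gene's probes ended the calls of Gata6 at P0 and in wild type from E15.5 to E17.5. For the interaction between E17.5 and P0, 4 members were called, against 0 with no filter and 1 each with the mean of probes (Emx2), no scan day term (Lhx9), the slide as a random block (Emx2) and only the stages compared (Gata4, outside the 4). It was 2 with scan day B only (Lhx9 and Esr2), chosen after seeing the data, 2 with 1.5-fold, and 5 each with normexp, quantile normalization and the stricter filter. Leaving out each array gave 0 to 4, with 0 without replicate 1 of the E17.5 knockout and without replicates 1 or 2 of the P0 wild type. With the replicate block it was 0, and the paired fit otherwise ended only the call of Gata4 in wild type from E15.5 to E17.5. Over all genes, the 2008 calls of the interaction between E17.5 and P0 became 1369 with no filter, where 27396 genes were tested. They became 1031 with no scan day term, 1063 with the replicate block and 1567 on scan day B only. Leaving out each array gave 1048 to 2024.

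In wild type from E15.5 to E17.5 the 5 called members became 3 with 1.5-fold and 1 to 5 when each array was left out (3 without E15.5 wild type replicate 1, and 1 without E17.5 wild type replicate 3). From E17.5 to P0 the 7 became 4 with no scan day term, 3 with 1.5-fold and 4 to 7 when each array was left out, with 4 without P0 wild type replicate 2. Over all genes, 5089 calls from E15.5 to E17.5 became 3587 without E15.5 wild type replicate 1 and 1049 without E17.5 wild type replicate 3. From E17.5 to P0, 8353 became 7154 with no scan day term and 6673 without P0 wild type replicate 2. The causes were not tested. Over all genes, 808 calls at E17.5 became 385 under array median scaling, 350 with no scan day term, 167 with the replicate block, 5 on scan day B only, 1 with only the stage's arrays and 141 (without knockout replicate 2) to 1033 when each array was left out. The 312 calls at E15.5 became 40 with no scan day term, 19 with the replicate block, 0 with only that stage's arrays and 23 to 472 when each array was left out. Esr2, at or near background in E15.5 knockout, has the least certain level there.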
